A study of Ovis aries with 6 samples.

Results

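Blood vessels and lymph vessels are lined by endothelial cells, and 10 genes that mark these cells were followed in the skin of fine wool and coarse wool sheep. The genes were chosen by their symbol and not by their values, although earlier results of these data were known. All 10 of the 10 symbols (PECAM1, CDH5, VWF, KDR, FLT1, TEK, TIE1, ENG, SOX18 and PROX1) were found among the 28394 genes of the files. Every one of them was among the 15320 genes with enough reads for a test. Skin was taken behind the shoulder blade of 3 Super Merino (SM) and 3 Small Tail Han (STH) sheep and sequenced as 1 polyA library per animal. SM is a fine wool breed and STH a coarse wool breed with medullated fibres. Both groups were ewes without any treatment, and per the methods of the study they shared a farm and a diet. The sample records give their age as 9 months, and the methods of the study state a younger age. Labels of the SM animals are 128, 30034 and 30126, those of the STH animals XW3, XW5 and XW8, and values per animal are always given in this order. Whole skin was used, so the endothelium was 1 of many cell types in each library, and fewer endothelial cells cannot be told apart from less RNA per endothelial cell.

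The endothelium of skin forms a deep and a superficial plexus in the dermis, with capillary loops around each follicle and its dermal papilla, and blind-ended lymph capillaries between them. Vascular endothelial growth factors (VEGF) act on the receptor kinases KDR and FLT1, and angiopoietins act on the receptor kinase TEK with its partner TIE1. The transcription factor SOX18 acts early in vessel formation, and in the mouse embryo it switches on PROX1, the homeobox factor that gives lymphatic endothelium its identity. The question followed here is how the vessel markers compare between the skins of both breeds.

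The total counts of the 6 libraries lay between 28870583 and 44645091. A floor of 3 counts, which covers counting error only, is 0.0672 to 0.104 CPM in these libraries, where CPM is a count scaled to the depth of its library. The members had between 119 and 13352 counts in each sheep, far above that floor. CPM values below carry TMM normalization from edgeR, and each log2 fold change sets SM against STH, positive where the SM level is the higher one. A gene passed the test when its adjusted p in edgeR's quasi-likelihood test was under 0.05 and the change over 1.5-fold in either direction. With all 6 sheep 0 of the 15320 genes passed, and without SM sheep 128 the number was 1175. The mean chi-square per gene between SM libraries was 57.8 for 128 with 30034, 101 for 30034 with 30126 and 153 for 128 with 30126. Over all pairs of libraries the smallest value, 41.9, was that of SM sheep 128 with STH sheep XW3. This measure grows with depth and 128 had the fewest total counts, so it does not rank the libraries by distance. Why the number of calls changed was not tested. Calls gained without SM sheep 128 are given beside the genes they concern.

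Reads of all 10 markers were present in each of the 6 sheep. Per length of transcript, on the scale of the deposited RPKM (reads scaled to exon length and library depth), ENG and PECAM1 were the most abundant and PROX1 the least. ENG (endoglin), a co-receptor for ligands of the TGF-beta and BMP family, had a mean level of 25.8 RPKM over the 6 sheep, with a range from 16.1 to 33.9. PECAM1 (CD31), an adhesion protein at the contacts between endothelial cells that platelets and leukocytes also carry, had a mean level of 25.2 RPKM. The order of these first genes differed from sheep to sheep, as ENG lay above PECAM1 in 3 of the 6 sheep. VWF (von Willebrand factor), the clotting protein that endothelium stores in Weibel-Palade bodies, had a mean level of 19.7 RPKM and lay below PECAM1 in all 6 sheep, although the ranges of the pair overlapped. After VWF there was a gap, with the range of VWF entirely above that of the next gene. KDR (VEGF receptor 2) and CDH5 (VE-cadherin, the cadherin of endothelial junctions) followed with mean levels of 7.70 and 7.58 RPKM, and KDR lay above CDH5 in only 4 of the 6 sheep. SOX18 came next with a mean level of 5.37 RPKM, on a gene model that spans only 837 bases. FLT1 (VEGF receptor 1), TIE1 and TEK had mean levels of 3.32, 2.88 and 1.85 RPKM, and neighbours in this order had overlapping ranges. PROX1 lay apart from TEK at a mean level of 0.498 RPKM, between 0.317 and 0.815 in single sheep.

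**Figure D1:**
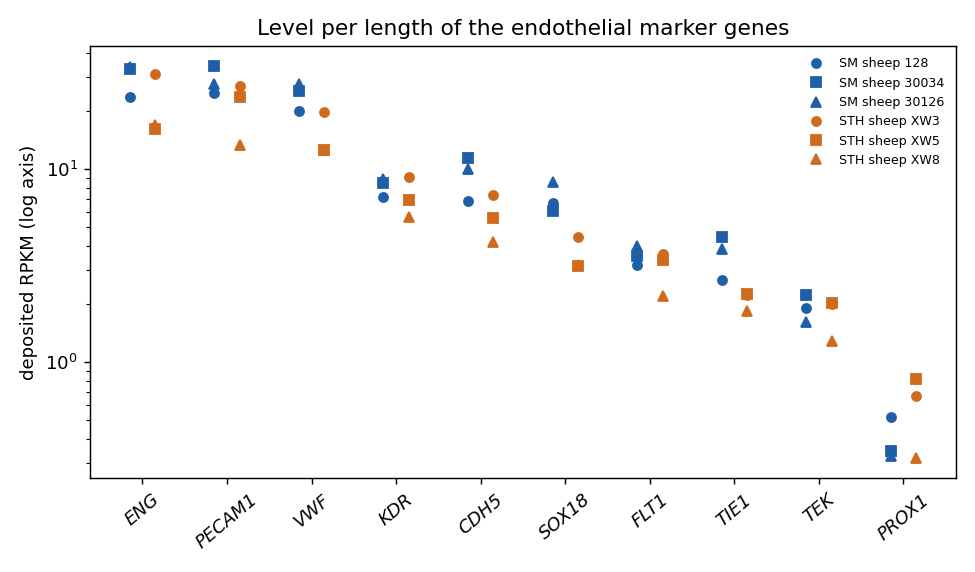
Deposited RPKM of each endothelial marker gene on a log axis, with 1 point per sheep, SM sheep in blue and STH sheep in orange, and the genes ordered by their mean over the 6 sheep. ENG, PECAM1 and VWF form the highest group, and PROX1 with a mean of 0.498 RPKM lies below all other genes in every sheep.

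Between the breeds, 9 of the 10 genes had a positive log2 fold change and PROX1 alone a negative one, beside 51.4% of all tested genes with a positive value. None of the 10 passed the test, and neither did any other gene, the share over all tested genes being 0%. The adjusted p of the members lay between 0.238 and 0.866. At an unadjusted p under 0.05 there were 4 members, SOX18, TIE1, VWF and CDH5, all higher in SM sheep, whereas 18.0% of all tested genes reached that level in either direction and 7.21% with a higher and 10.8% with a lower value in SM sheep. In SOX18, TIE1 and VWF every SM sheep lay above every STH sheep, which held for 12.3% of all tested genes. The reverse held for 0 of the 10 members and for 13.3% of all tested genes. The median log2 fold change was 0.43 over the 10 members and 0.02 over all tested genes. The 10 genes were read in the same 6 animals and are not independent of each other, although they do not all mark the same cells.

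With other tests the number of members past the thresholds was 1 with edgeR's likelihood ratio test and 1 with DESeq2, SOX18 in both, beside 2.30% and 2.87% of all genes tested. It was 0 with limma-voom, as for all genes. In each of these 3 tests the 4 members CDH5, VWF, TIE1 and SOX18 had an unadjusted p under 0.05, beside 19.1%, 20.2% and 20.6% of all genes in the likelihood ratio test, DESeq2 and limma-voom. Without SM sheep 128, CDH5 and TIE1 passed in the quasi-likelihood test, with adjusted p of 0.0470 and 0.0282, beside 7.73% of all genes tested without this sheep. The number of members with SM entirely above STH was 6 without SM sheep 128, beside 24.6% of all genes, and 7 without STH sheep XW3, beside 20.4%. The median log2 fold change depended on single sheep. It was 0.68 without XW3 and 0.23 without XW8, the sheep with the lowest value of the 6 in 7 of the 10 members. With the intronic share of each library as a covariate the median was 0.28, and with the trend on exon length removed it was 0.50. In the fit with the intronic share TEK rose to 0.12, and the log2 fold changes of the other members moved toward 0.

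**Figure D2:**
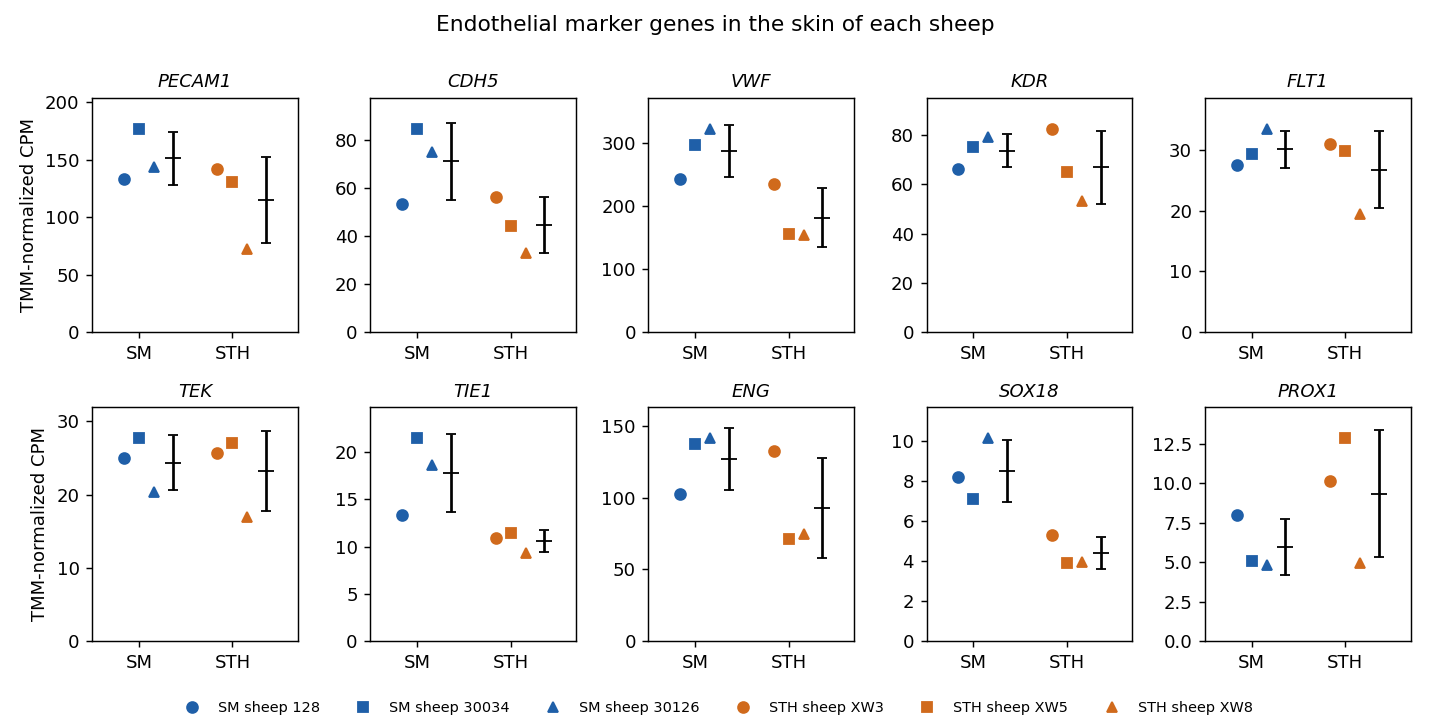
TMM-normalized CPM of the 10 endothelial marker genes, each panel with 1 point per sheep, the mean of each breed and bars of 1 SD (n = 3), on linear axes that start at 0. The SM points lie above all STH points for VWF, TIE1 and SOX18, and STH sheep XW8 is the lowest point in 7 of the 10 panels.

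SOX18 had the largest breed difference among the members. Its CPM were 8.20, 7.08 and 10.1 in the SM animals. The STH animals had 5.32, 3.91 and 3.94 CPM. The breeds did not overlap, and the nearest pair was SM sheep 30034 with STH sheep XW3. The means were 8.47 ± 1.55 (SD, n = 3) for SM and 4.39 ± 0.804 (SD, n = 3) for STH, a 1.93-fold difference. The log2 fold change was 0.95 (standard error 0.24, 95% confidence interval 0.40 to 1.504, adjusted p = 0.238 in the quasi-likelihood test). The adjusted p was 0.0484 with the likelihood ratio test, 0.0228 with DESeq2 and 0.185 with limma-voom. In Oar_v4.0 the files place SOX18 (identifier 105616722) on the plus strand at chr13:53062011-53062847.

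The partners of the angiopoietin receptor complex had unequal log2 fold changes, and the difference between them was not tested. TIE1, which has no ligand of high affinity of its own and modulates TEK, had 13.3, 21.5 and 18.6 CPM in the SM animals against 10.96, 11.5 and 9.30 CPM in the STH animals. Again the breeds did not overlap, with SM sheep 128 nearest to the STH animals. The log2 fold change of TIE1 was 0.75 (standard error 0.21, 95% confidence interval 0.27 to 1.23, adjusted p = 0.243). TEK (TIE2), the signalling receptor for angiopoietins, had 24.9, 27.7 and 20.3 CPM in the SM animals against 25.6, 26.98 and 16.9 CPM in the STH animals. The breeds overlapped, with 1 low sheep in each. Its log2 fold change was 0.07 (standard error 0.21, 95% confidence interval -0.42 to 0.55, adjusted p = 0.866), and it changed sign without SM sheep 30034 or STH sheep XW8. TIE1 (identifier 443265) lies at chr1:17747521-17766820 and TEK (identifier 497272) at chr2:94772847-94876400, both on the plus strand of Oar_v4.0.

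The structural and adhesion markers were higher in SM sheep on average. VWF had 242, 296 and 322 CPM in the SM animals against 235, 155 and 154 CPM in the STH animals. The breeds did not overlap, but SM sheep 128 and STH sheep XW3 nearly met, and they overlapped once the trend on exon length was removed. The log2 fold change of VWF was 0.66 (standard error 0.21, 95% confidence interval 0.19 to 1.13, adjusted p = 0.247). CDH5 had 53.4, 84.9 and 75.3 CPM in the SM animals against 56.3, 44.3 and 33.1 CPM in the STH animals. SM sheep 128 was thus below STH sheep XW3, and this was the only pair out of order. The log2 fold change of CDH5 was 0.68 (standard error 0.24, 95% confidence interval 0.14 to 1.21, adjusted p = 0.250). PECAM1 had 133, 177 and 144 CPM in the SM animals against 142, 130.4 and 72.3 CPM in the STH animals. Only STH sheep XW8 stood clearly below the rest, and the log2 fold change of 0.40 (95% confidence interval -0.17 to 0.96, adjusted p = 0.384) was 0.15 without it. On Oar_v4.0, VWF (identifier 101110931) lies at chr3:207942544-208065973 and CDH5 (identifier 101107462) at chr14:33384804-33423504 on the plus strand, and PECAM1 (identifier 100303608) at chr11:47888341-47992600 on the minus strand.

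ENG, which is also made by macrophages and some fibroblasts, split the STH sheep. It had 102, 137 and 142 CPM in the SM animals against 133, 70.9 and 74.5 CPM in the STH animals. STH sheep XW3 lay among the SM sheep and the other STH sheep lay well below. The log2 fold change was 0.46 (standard error 0.26, 95% confidence interval -0.13 to 1.04, adjusted p = 0.342), and it was 0.80 without STH sheep XW3 and 0.25 with the intronic share of each library as a covariate. ENG (identifier 101123539) lies at chr3:8228629-8259136 on the plus strand of Oar_v4.0.

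In the main quasi-likelihood fit the VEGF receptors showed the smallest differences in size beside TEK. With the trend on exon length removed, the log2 fold changes were 0.36 for KDR, 0.39 for FLT1, 0.34 for TEK and -0.36 for PROX1. KDR, which carries most of the VEGF signal in endothelium, had 66.2, 75.3 and 79.4 CPM in the SM animals against 82.6, 65.0 and 53.1 CPM in the STH animals. The highest and the lowest of the 6 were thus both STH sheep. FLT1, which binds VEGF tightly and also exists as a soluble decoy, had 27.6, 29.4 and 33.6 CPM in the SM animals against 31.1, 29.9 and 19.5 CPM in the STH animals. Apart from XW8 the STH sheep lay within the SM range. The log2 fold changes were 0.14 for KDR (95% confidence interval -0.27 to 0.55, adjusted p = 0.666) and 0.17 for FLT1 (95% confidence interval -0.29 to 0.63, adjusted p = 0.630). Both changed sign without STH sheep XW8, to -0.0038 and -0.015. The intervals do not contain a 2-fold difference in either direction, as a log2 fold change of 1 lies outside them. On Oar_v4.0, KDR (identifier 443087) lies at chr6:70477415-70524590 on the minus strand and FLT1 (identifier 443088) at chr10:31814061-32020993 on the plus strand.

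PROX1, the lymphatic marker of the group, was the only member with a lower mean in SM sheep. Its level was 7.998, 5.09 and 4.84 CPM in the SM animals against 10.1, 12.9 and 4.96 CPM in the STH animals. STH sheep XW8 lay among the low SM sheep, and the other STH sheep were the highest of the 6. The means were 5.98 ± 1.76 (SD, n = 3) for SM and 9.32 ± 4.01 (SD, n = 3) for STH. The log2 fold change was -0.65 (standard error 0.36, 95% confidence interval -1.47 to 0.18, adjusted p = 0.340). It was -0.95 without STH sheep XW8, when the remaining breeds no longer overlapped, as for 19.1% of all genes tested in the same direction in those 5 sheep, and -0.34 without STH sheep XW5. PROX1 (identifier 101112662) lies at chr12:67588548-67648728 on the minus strand of Oar_v4.0.

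**Figure D3:**
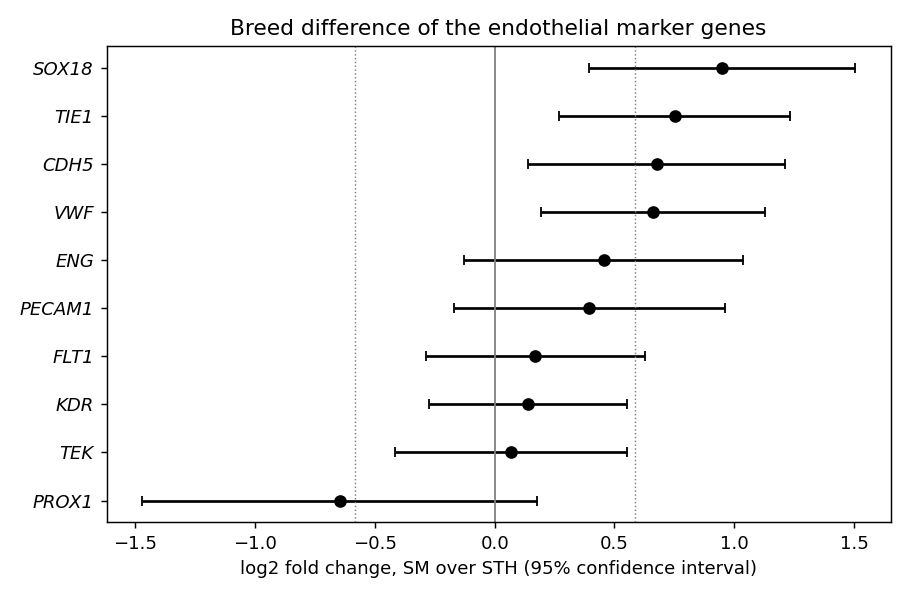
Log2 fold change of each member, SM over STH, from edgeR's quasi-likelihood fit (points) with its 95% confidence interval (bars), where dotted lines mark a 1.5-fold change in both directions. The intervals of SOX18, TIE1, CDH5 and VWF lie above 0, and those of the other 6 genes include 0.

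Ratios of counts between members of the same library do not depend on how the libraries are scaled to each other, and 6 pairs were followed. The PROX1 count relative to the PECAM1 count was 0.0602, 0.0288 and 0.0337 in the SM animals against 0.0713, 0.0986 and 0.0686 in the STH animals. The ratio was lower in all SM than in all STH sheep, 0.494 of the STH value on the geometric mean. Over all tested genes, however, the ratio to PECAM1 was lower in all SM sheep for 18.9%, so that this pattern was common for a gene set against PECAM1. The TEK count relative to the TIE1 count was 1.87, 1.29 and 1.09 in the SM animals against 2.34, 2.35 and 1.82 in the STH animals. Only SM sheep 128 and STH sheep XW8 were out of order in this ratio. The log2 ratio averaged 0.47 ± 0.40 (SD, n = 3) for SM and 1.11 ± 0.21 (SD, n = 3) for STH. FLT1 relative to KDR was the most even of the 6, with ratios between 0.368 and 0.461 in all sheep and a breed difference of 0.04 on the log2 scale, which changed sign without STH sheep XW3 and was -0.022 without XW8. The breeds also overlapped for CDH5 to PECAM1, VWF to PECAM1 and SOX18 to CDH5, with differences of 0.24, 0.24 and 0.27 on the log2 scale. These differences depended on single sheep, as leaving out each in turn gave 0.13 to 0.34 for CDH5 to PECAM1, 0.017 to 0.44 for VWF to PECAM1 and 0.088 to 0.53 for SOX18 to CDH5. STH sheep XW5 had the lowest ratio of VWF to PECAM1, 1.19, beside values from 1.65 to 2.24 in the other 5 sheep.

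**Figure D4:**
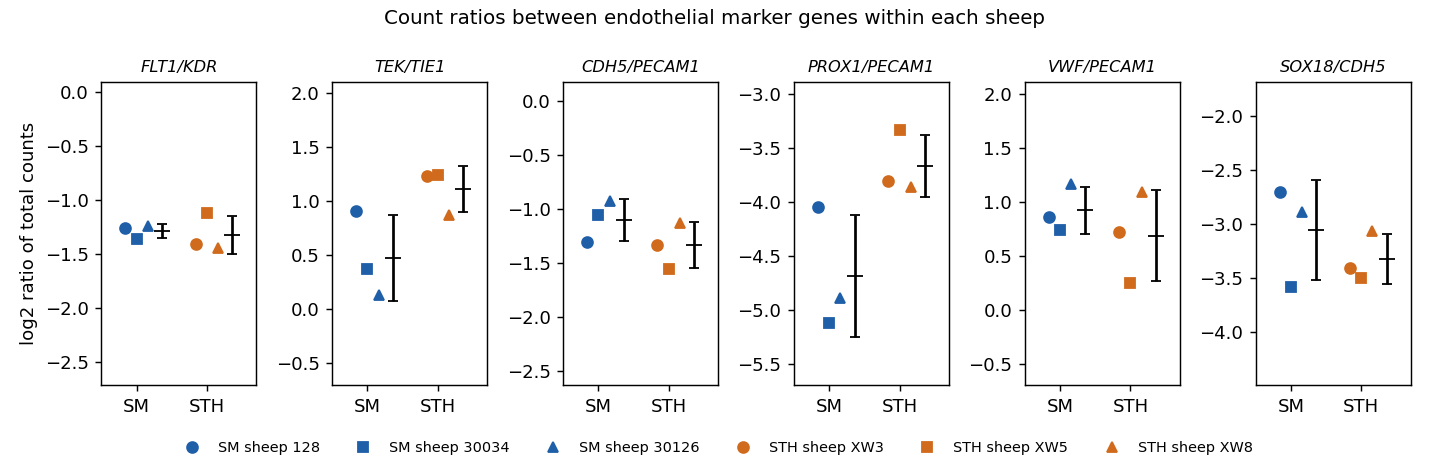
Log2 ratio of total counts for 6 pairs of endothelial marker genes, with 1 point per sheep, the mean of each breed and bars of 1 SD (n = 3), on axes of equal length but different position. Only for PROX1 to PECAM1 do all SM points lie below all STH points.

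Genes with the most similar pattern over the 6 sheep were sought among the 15310 other tested genes, by Pearson's r between a gene's log2 CPM and the mean of the members' standardized log2 CPM. The members did not all share this mean pattern, as r with the mean of the other members was -0.11 for PROX1 and 0.57 for TEK, the lowest values. The 5 highest were DTNB, HSPA9, VPS13D, LOC105604781 and CD93, with r between 0.986 and 0.995 over the 6 sheep. These values were the highest of 15310 and are given as a description without a test, and 148 genes had an r above 0.9. CD93, a glycoprotein of endothelial and myeloid cells, was the only one of the 5 in the companion lists. HSPA9, a mitochondrial chaperone, had a similar order of sheep over a far narrower range, from 279 to 315 CPM. The log2 fold changes of these 5 lay between 0.08 and 0.51, and none passed the test.

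A list of 24 further endothelial genes was read in the same way. Of the 22 found in the files, all were tested, 18 had a positive log2 fold change, beside 51.4% of all tested genes, and 0 passed the test. At an unadjusted p under 0.05 there were 9, of which 8 were higher in SM sheep, beside 18.0% and 7.21% of all tested genes. The SM values of 4 lay entirely above those of STH, beside 12.3% of all tested genes. The median log2 fold change was 0.40. ROBO4, a receptor that stabilizes vessels, had the smallest p of the list, with 17.4, 17.9 and 19.0 CPM in the SM animals against 13.7, 8.79 and 10.6 CPM in the STH animals (log2 fold change 0.72, standard error 0.20, adjusted p = 0.240). ACVRL1, the receptor kinase that works with endoglin, had a log2 fold change of 0.57 (adjusted p = 0.247). RAMP2, a subunit of the adrenomedullin receptor and the most abundant gene of the list per length, had 0.58 (adjusted p = 0.260). Among these 9 genes only EMCN (endomucin), a mucin of capillaries and veins, was lower in SM sheep. It had 22.0, 18.0 and 13.7 CPM in the SM animals against 29.9, 27.4 and 24.7 CPM in the STH animals (log2 fold change -0.61, standard error 0.20, adjusted p = 0.247). Every SM sheep was below every STH sheep, as for 13.3% of all tested genes. Without SM sheep 128, EMCN (-0.79, adjusted p = 0.0436) and RAMP2 (0.79, adjusted p = 0.0333) passed the quasi-likelihood test.

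Of 8 lymphatic genes, all were tested and 0 passed, and the median log2 fold change was -0.08. MMRN1 (multimerin 1), a secreted protein of lymphatic endothelium and platelets, was the only one with an unadjusted p under 0.05, beside 18.0% of all tested genes. It had 9.52, 2.26 and 3.67 CPM in the SM animals against 14.4, 14.5 and 13.5 CPM in the STH animals. Every SM sheep was thus below every STH sheep, as for 13.3% of all tested genes. On the log2 scale SM against STH was -1.47 (standard error 0.46, adjusted p = 0.247 in the quasi-likelihood test). The adjusted p of MMRN1 was 0.0667 with the likelihood ratio test, 0.0372 with DESeq2 and 0.185 with limma-voom. Its log2 fold change was -2.26 without SM sheep 128, when MMRN1 passed the quasi-likelihood test (adjusted p = 0.0163), and -1.11 without SM sheep 30034. For the other lymphatic genes described here the breeds overlapped. The log2 fold changes were 0.32 for FLT4 (VEGF receptor 3), -0.32 for LYVE1 (a hyaluronan receptor of lymph capillaries that some macrophages share), -0.16 for RELN, -0.10 for CCL21 (the chemokine that draws dendritic cells into lymph vessels), -0.07 for FOXC2 and -0.03 for PDPN. The signs of RELN, CCL21, FOXC2 and PDPN changed under at least 1 alternative.

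Among 11 ligands, co-receptors and partners of the member receptors found in the files, 4 had an unadjusted p under 0.05, beside 18.0% of all tested genes, and 0 passed. Of these 4, 2 were higher and 2 lower in SM sheep, beside 7.21% and 10.8% of all tested genes. SM lay entirely above STH in 2 of the 11 genes and entirely below in 2, beside 12.3% and 13.3% of all tested genes. VEGFA, the main ligand of KDR and FLT1, was lower in all SM sheep, with 14.6, 12.6 and 11.4 CPM against 18.1, 20.9 and 22.0 CPM in the STH animals. On the log2 scale SM against STH was -0.66 (standard error 0.17, adjusted p = 0.240 in the quasi-likelihood test). The adjusted p of VEGFA was 0.0649 with the likelihood ratio test and 0.0363 with DESeq2. Without SM sheep 128 VEGFA passed the quasi-likelihood test (-0.77, adjusted p = 0.0436). ANGPT1, the activating ligand of TEK, was also lower in all SM sheep, at 2.88, 2.30 and 0.968 CPM against 5.38, 5.73 and 2.98 CPM (log2 fold change -1.20, standard error 0.44, adjusted p = 0.255). ANGPT4, a further angiopoietin, was higher in all SM sheep, at 36.8, 31.9 and 24.5 CPM against 23.1, 13.5 and 13.3 CPM (log2 fold change 0.90, standard error 0.26, adjusted p = 0.244 in the quasi-likelihood test). Its adjusted p was 0.0548 with the likelihood ratio test and 0.0447 with DESeq2. The log2 fold changes of VEGFA, ANGPT1 and ANGPT4 thus had both signs, and none of them passed the quasi-likelihood test with all 6 sheep. NRP2, a co-receptor for VEGF-C and semaphorins, had a log2 fold change of 0.43, VEGFB 0.32 with no overlap between the breeds, NRP1 0.15, ANGPT2 0.28, FIGF (VEGF-D) 0.27, the phosphatase PTPRB 0.08, VEGFC -0.02 and PGF -0.01. For these 8 genes the adjusted p lay between 0.274 and 0.986, and the signs of ANGPT2, PTPRB, VEGFC and PGF changed under at least 1 alternative.

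**Figure D5:**
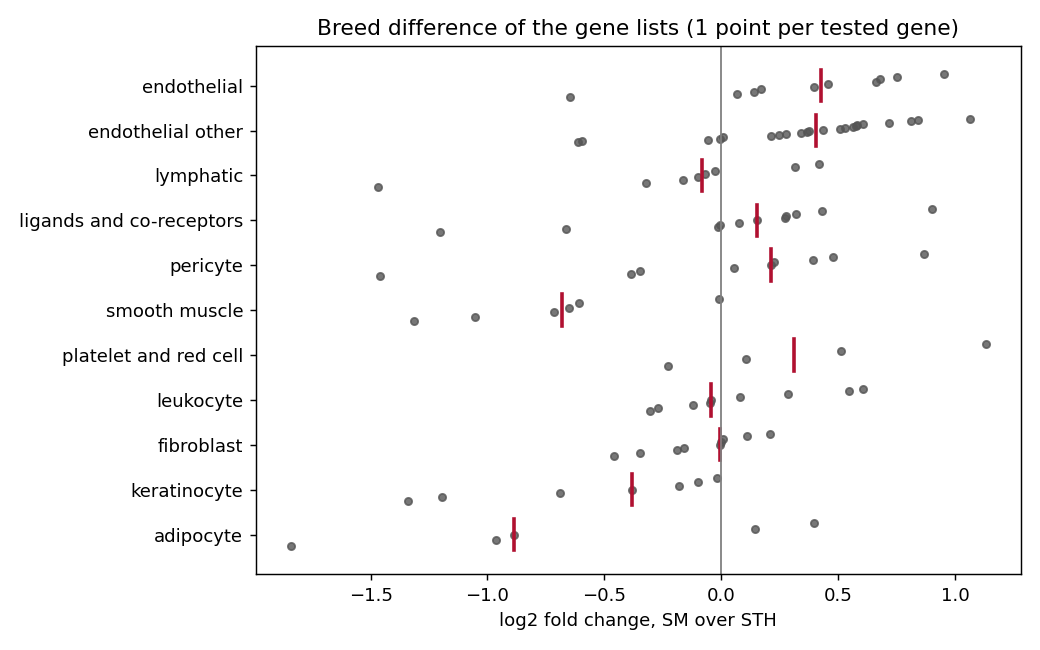
Log2 fold change, SM over STH, of every tested gene of the endothelial group and 10 companion lists, with 1 point per gene and a red bar at the median of each list. The medians of both endothelial lists lie near 0.4. Those of the smooth muscle, keratinocyte and adipocyte lists lie furthest below 0, and those of the lymphatic, leukocyte and fibroblast lists slightly below 0.

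Markers of the cells that surround or fill vessels were read beside the members, and their part in the results was not tested. Of 9 pericyte genes, 2 were higher and 1 was lower in SM sheep at an unadjusted p under 0.05, beside 7.21% and 10.8% of all tested genes. SM lay entirely above STH in 3 of the 9 and entirely below in 1, beside 12.3% and 13.3% of all tested genes. The summed level of the 9 genes was 538 to 584 CPM in SM and 559.7 to 578 CPM in STH sheep. RGS5 was lower in all SM sheep (log2 fold change -1.46), whereas PDGFRB (0.48) and HIGD1B (0.86) were higher in all SM sheep, and NOTCH3, the most abundant per length, had 0.05. All 6 smooth muscle genes had a negative log2 fold change, 5 of them with an unadjusted p under 0.05. Over all tested genes 10.8% were lower in SM sheep at that level. The summed level of the 6 genes was 1112 to 1331 CPM in SM and 1760 to 2242 CPM in STH sheep. MYH11, DES and ACTG2 had log2 fold changes of -1.05, -1.32 and -0.72, and TAGLN had -0.01, which turned positive with upper quartile normalization. These genes mark arrector pili as well as vessel walls.

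Blood cells can bring PECAM1, VWF and ENG into a skin sample. Of 10 platelet and red cell genes 5 were found and 4 tested, with a summed level of 22.9 to 31.1 CPM in SM and 16.1 to 27.03 CPM in STH sheep. GP1BA (1.13, and between 0.81 and 1.83 with 1 sheep left out) had an unadjusted p under 0.05, as had 18.0% of all tested genes. PF4 (0.51), ITGA2B (-0.23) and ITGB3 (0.11) had not, and the signs of these 3 changed under at least 1 alternative. ALAS2, the red cell enzyme, had at most 8 counts in any sheep. Of 9 leukocyte genes tested, 1 had an unadjusted p under 0.05, beside 18.0% of all tested genes. The summed level of the 9 was 236 to 304 CPM in SM and 241 to 272 CPM in STH sheep. Over the 9 genes the median on the log2 scale was -0.05, and 4 were positive. CD3E had 0.61, CD2 0.55 and CSF1R 0.28, the last between 0.12 and 0.43 with 1 sheep left out. Summed levels of the 9 fibroblast genes were 15319 to 21720 CPM in SM and 17741 to 21697 CPM in STH sheep, with log2 fold changes of -0.35 for DCN, -0.46 for LUM, 0.21 for FBLN1 and 0.01 for COL1A1, whose sign changed under 5 alternatives. The 7 keratinocyte genes tested summed to 7644 to 9198 CPM in SM and 9217 to 14586 CPM in STH sheep, with -1.34 for KRT10, -1.20 for KRT1, -0.69 for DSG3 and -0.38 for KRT5. The 5 adipocyte genes tested summed to 32.9 to 68.2 CPM in SM and 141 to 179 CPM in STH sheep. Most of each sum was FABP4, with 27.8 to 62.6 CPM in SM and 128 to 169 CPM in STH sheep. Of the 5 genes 2 had a positive log2 fold change. Their median was -0.88, and between -1.12 and -0.0023 with 1 sheep left out. FABP4, which fat cells and capillary endothelium share, had -1.84, LPL -0.97 and CIDEC 0.40, and LEP had at most 12 counts in any sheep. None of the genes in these lists passed the quasi-likelihood test with all 6 sheep. Without SM sheep 128 it passed RGS5 (adjusted p = 0.0396), MYH11 (0.0163), DES (0.0210), ACTG2 (0.0423), KRT10 (0.0436) and FABP4 (0.0194) among the genes named here, and without SM sheep 30034 FABP4 (0.0222). With DESeq2 the adjusted p was under 0.05 for RGS5 (0.0174), MYH11 (8.79e-12), DES (1.81e-05), ACTG2 (0.0030), KRT10 (8.41e-04), KRT1 (0.0219) and FABP4 (2.76e-06) among the genes named here.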

How the data were processed

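Total counts per gene were deposited by the authors as whole numbers without normalization, 1 library per sheep, from reads mapped to Oar_v4.0 in CLC Genomics Workbench. Deposited RPKM served for levels per length, whereas the TPM and the score called CPM that the authors deposited were not used. Genes reaching 10 counts in 3 or more sheep were tested by edgeR 4.0.16 in R 4.3.3 (TMM, estimateDisp, glmQLFit, glmQLFTest), with breed as the only term and Benjamini-Hochberg adjustment. The standard error is the size of the log2 fold change over the square root of F, and the 95% intervals follow from it. Whether strand was used in counting is not given in the sources used here, so antisense reads cannot be told apart. P values measure the spread between 3 animals a breed. The members and lists were chosen with earlier results of these data known. Genes named are the members, the lymphatic and ligand lists, the 3 smallest p and the highest mean RPKM of each other list, and the 5 genes most like the members, apart from a gene that is not reported here. Alternatives used limma 3.58.1, DESeq2 1.42.0, other normalizations and filters, the intronic share of each library as covariate, removal of the trend on exon length (loess span 0.5) and each sheep left out. The tests were checked on simulated counts with known changes, where a larger share of the calls by DESeq2 and the likelihood ratio test was false than of those by the quasi-likelihood test. The quasi-likelihood test in turn missed more of the known changes than DESeq2 and the likelihood ratio test did. Counts were simulated once, with a small share of genes changed, all well counted and by a single fold change. The shares of false calls need not hold for the real data.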

Additional observations from a re-analysis of the deposited data

How the results depend on the processing

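With all 6 sheep 0 genes passed both thresholds over all genes in the quasi-likelihood test, against 439 with DESeq2, 352 with the likelihood ratio test, 2 without a filter on low counts and 8 with the trend on exon length removed. Leaving out 1 sheep in turn gave 0 to 1175 genes past both thresholds and 1108 to 4609 genes at an unadjusted p under 0.05, the higher of each without SM sheep 128. The members past both thresholds numbered 1 with DESeq2 and 1 with the likelihood ratio test, and 0 to 2 with 1 sheep left out. The members whose SM sheep lay above all STH sheep numbered 3 to 7 with 1 sheep left out, 6 without SM sheep 128 and 7 without STH sheep XW3, and those below numbered 0 to 1. Signs of log2 fold changes that turned were those listed next, and the cause was not tested. With 1 sheep left out the log2 fold change ranged from its lowest to its highest value as KDR -0.0038 to 0.32, FLT1 -0.015 to 0.29, TEK -0.11 to 0.20, CCL21 -0.67 to 0.15, FOXC2 -0.23 to 0.19, PDPN -0.18 to 0.16, TAGLN -0.11 to 0.11, PF4 -0.18 to 0.85, ITGA2B -0.44 to 0.17, COL1A1 -0.26 to 0.14, ANGPT2 -0.035 to 0.51, PTPRB -0.19 to 0.25, VEGFC -0.30 to 0.20 and PGF -0.12 to 0.12. With the trend on exon length removed RELN was 0.17. With upper quartile normalization PDPN was 0.0059, TAGLN 0.024, VEGFC 0.017 and PGF 0.028. With the intronic share as covariate ITGA2B was 0.068, ITGB3 -0.034 and PGF 0.022. COL1A1 was -0.021 with limma-voom and -0.00061 with a minimum of 1 CPM in 3 sheep. Ratios of RPKM in place of counts gave the same breed differences, since length cancels between the breeds, and ratios of uniquely assigned reads were not run because the files used give total counts only. No paired analysis was possible because the sheep labels name individual animals and share no numbers between the breeds.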
